A study of Mus musculus with 8 samples.

Results

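A set of 42 interferon-stimulated genes was examined in the livers of db/db mice that had received an adenovirus, and 41 of them had a feature among the 41388 in the count tables. The members were taken by gene symbol from a list of mouse interferon-stimulated genes that was drawn up with earlier results of these data known, and the rule itself used no measured value. Gbp6 was matched by no symbol and was not analysed here. RNA was sequenced from 8 livers, with 4 mice labelled AdGFP and 4 labelled AdNAMPT. All 8 carried the db/db genotype, which removes a working leptin receptor and produces obesity and diabetes, on a background that the labels write as C57B/6J. Littermates were randomised at 5 weeks, were injected through the tail vein and were 10 weeks old at sampling. The control vector carried green fluorescent protein. The other vector carried nicotinamide phosphoribosyltransferase (NAMPT), the enzyme that recycles nicotinamide toward NAD. Overexpression lasted 4 to 5 weeks according to the series description. The study's own text gives shorter times from adenovirus delivery to assay, of hours to days, so the time since injection is uncertain. Every mouse had received a virus, and no uninjected db/db mouse was among the samples, so the comparison measured what differed between the vectors and could not show the response to adenovirus itself.

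Interferons are secreted antiviral signals. Type I and type III interferons activate a complex holding STAT2 and IRF9 that binds the interferon-stimulated response element (ISRE), whereas the response to interferon gamma acts through the gamma-activated site (GAS). In liver, hepatocytes and resident macrophages both answer these signals, with proteins that sense viral nucleic acid, block viral replication, present antigen and attract lymphocytes. The members were described here in 8 groups by role: nucleic acid sensors, transcription factors, ISG15 and its protease, the IFIT, OAS and MX effectors, other antiviral effectors, guanylate-binding proteins with the immunity-related GTPases, antigen processing, and chemokines.

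The ISRE core was searched as GAAA, any 2 bases and GAAA again, and the GAS as TTCNNNGAA, both read on either strand of RefSeq promoter windows of 300 bases (250 before and 50 after each start site, GRCm38.p6). The ISRE core was in 18 of the 31 members with a window (58.1%), against 3.99% of all 27025 genes with a window, and the GAS was in 8 (25.8%), against 9.55%. Both were in 5 members (16.1%), against 0.614% of genes. Counted by window, the shares over all 32851 windows were 3.44%, 8.30% and 0.454%. A match is a run of letters and was not measured as a bound site. The last 120 bases before the start site are printed below for Igtp and Irgm2, which with Tap1 had the 3 smallest p-values between the groups, and for Isg15 and Ifit1, type I interferon targets for comparison. Capitals mark ISRE and GAS letters, and each sequence reads 5′ to 3′ on the gene's own strand.
Igtp, chr11:58199436-58199555, plus strand: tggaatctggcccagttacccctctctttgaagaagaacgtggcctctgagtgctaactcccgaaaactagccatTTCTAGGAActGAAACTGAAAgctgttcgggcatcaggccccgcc
Irgm2, chr11:58214857-58214976, plus strand: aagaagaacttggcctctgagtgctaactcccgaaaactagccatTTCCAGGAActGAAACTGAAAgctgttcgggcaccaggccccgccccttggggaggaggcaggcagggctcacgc
Isg15, chr4:156200819-156200938, minus strand: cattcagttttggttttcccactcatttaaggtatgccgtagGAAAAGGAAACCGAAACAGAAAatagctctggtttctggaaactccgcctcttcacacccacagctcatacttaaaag
Ifit1, chr19:34640769-34640888, plus strand: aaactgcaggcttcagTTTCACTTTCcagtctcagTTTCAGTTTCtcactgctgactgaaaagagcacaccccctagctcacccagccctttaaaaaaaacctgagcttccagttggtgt

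In Igtp the GAS letters began 45 bases before the start site and the ISRE letters 34 bases before it. In Irgm2 the same pair began 75 and 64 bases before the start. Laid over each other at the GAS letters, the windows of these neighboring genes matched at 184 of 270 bases (68.1%). The joined letters TTCNNNGAANNGAAANNGAAA, a pattern chosen after these windows were read, occurred in 5 of the 32851 windows (0.0152%), those of Igtp, Irgm2, Tgtp1, Tgtp2 and Gm12185, so 2 of the 5 genes were members. Isg15 held 3 overlapping ISRE matches and no GAS, and Ifit1 held 2 ISRE matches, which lie on the reverse strand and are printed as TTTCACTTTC and TTTCAGTTTC. The windows of Irf9 and Tap1 held neither set of letters.

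Libraries held 12006713 to 19879814 counts, and 3 counts, taken as the smallest detectable amount, equalled 0.151 to 0.250 CPM, a count scaled to its library's total. Levels below are normalized CPM, in which the library size is scaled by its TMM factor, and levels of different genes are compared only as normalized RPKM, which also divides by exonic length. Nampt itself lay at 107 to 159.5 normalized CPM in AdGFP and 120.3 to 172 in AdNAMPT, with a log2 fold change of 0.08 (limma, adjusted p = 0.915), so the group names are those of the labels. A pair of libraries stood apart on genes with no link to interferon. AdNAMPT 1 had a summed 199 normalized CPM over 9 female-biased liver genes, against 1109 to 1146 in the other AdNAMPT mice and 1232 to 1615 in AdGFP, and the model gave it a sample weight of 0.440, against 0.811 to 1.41 for the others. AdNAMPT 4 had 362 reads of Xist, a noncoding RNA made from an X chromosome that is being silenced, against 0 to 8 in the other 7 libraries, while 4 Y-chromosome genes summed to 203 to 243 normalized CPM in all 8. Hepatocyte markers such as Alb dominated every library, with 5 markers summing to 96528 to 120085 normalized CPM in AdGFP and 86450 to 113945 in AdNAMPT.

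No interferon-stimulated gene of the set passed the test between AdNAMPT and AdGFP, and how many lay above 0 depended on the fit. In all, 37 members exceeded 1 CPM in at least 3 libraries and were tested. Of these, 28 had a higher and 9 a lower fitted level in AdNAMPT, with a median log2 fold change of 0.11, beside a median of 0.00 over all 12270 genes tested, of which 50.4% lay above 0. The split was 25 higher and 12 lower (median 0.06) by both edgeR and DESeq2, 20 and 17 (0.06) without sample weights and 21 and 16 (0.07) without the filter, where 51.3%, 51.8%, 49.9% and 51.1% of all genes lay above 0. Scaled by library size only it was 32 and 5 (0.19), where 71.8% of all genes lay above 0. By limma, 0 of 37 members had an adjusted p of at most 0.05 (range 0.154 to 0.993), beside 34 of all genes tested (0.277%), 2 of them higher (0.0163%) and 32 lower (0.261%). At an unadjusted p under 0.05, 5 members were higher and 0 lower, where 4.65% of all genes tested were higher and 5.04% lower (9.69% together). edgeR's quasi-likelihood test called 0 members and placed 4 under that unadjusted p, beside 0.269% and 8.0% of all genes. The DESeq2 Wald test also called 0 and placed 4, beside 0.611% and 6.85%. The groups overlapped for all 37 members, whereas 4.79% of all genes tested did not overlap (2.09% higher and 2.7% lower). The 95% confidence interval of the log2 fold change lay within 1 of 0 for 30 of 37 members and included 0 for 32, and standard errors ran from 0.09 to 0.43.

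**Figure D1:**
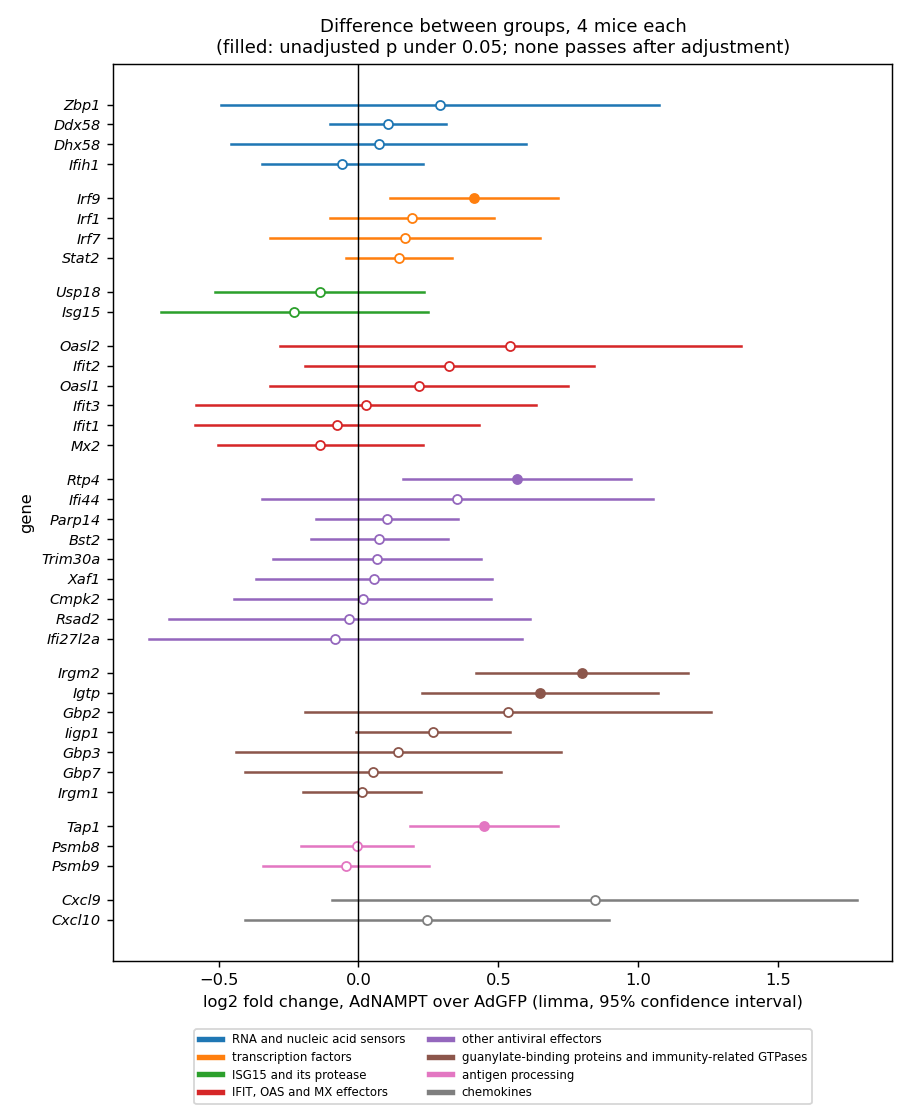
Log2 fold change of each tested member, AdNAMPT over AdGFP, with its 95% confidence interval from limma, grouped by role and ordered within each group. Filled points have an unadjusted p under 0.05: Irf9, Rtp4, Irgm2, Igtp and Tap1. All 7 guanylate-binding proteins and immunity-related GTPases lie above 0 and both ISG15 pathway genes lie below it, and no gene passes after adjustment over all genes tested.

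Among the GTPases, 2 of the immunity-related GTPases, Irgm2 and Igtp, held 2 of the 3 smallest p-values of the set. Irgm2 (ENSMUSG00000069874, chr11:58199618-58222779) was at 11.0, 15.4, 10.7 and 11.4 normalized CPM in AdGFP 1 to 4 and at 11.8, 19.0, 25.3 and 21.6 in AdNAMPT 1 to 4. AdNAMPT 2, 3 and 4 lay above every AdGFP mouse, and AdNAMPT 1 lay among them. The means were 12.1 ± 2.20 and 19.4 ± 5.72 (SD, n = 4 each). The log2 fold change was 0.80 (95% interval 0.42 to 1.18, a fold of 1.74), with an unadjusted p of 0.00072 and an adjusted p of 0.154 by limma, the smallest of the 37 members.

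Igtp (ENSMUSG00000078853, chr11:58199556-58207591), a GTPase of the same family also called Irgm3, was at 23.9, 28.3, 22.9 and 23.9 normalized CPM in AdGFP 1 to 4 and at 17.1, 40.0, 40.8 and 47.1 in AdNAMPT 1 to 4. AdNAMPT 1 was the lowest of all 8 mice and the other AdNAMPT mice were the 3 highest. The means were 24.8 ± 2.40 and 36.2 ± 13.1 (SD, n = 4 each), and the log2 fold change was 0.65 (95% interval 0.23 to 1.07). The limma p was 0.00602 before and 0.358 after adjustment. The features of Igtp and Irgm2 share 162 exon bases on the same strand, 8.01% of the Igtp exons and 4.47% of the Irgm2 exons, and reads in the shared stretch were not counted for either gene.

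Iigp1, the most abundant GTPase of the set, was at 210.1, 212, 204 and 205 normalized CPM in AdGFP 1 to 4 and at 179, 228, 254 and 334 in AdNAMPT 1 to 4. The AdGFP mice spanned a narrow range, and the AdNAMPT mice lay on both sides of it. The log2 fold change was 0.27 (95% interval -0.01 to 0.54, limma unadjusted p = 0.0577, adjusted p = 0.534). Irgm1, a regulator that holds the effector GTPases inactive on the cell's own membranes, was at 60.4 to 74.8 normalized CPM in AdGFP and 52.8 to 76.5 in AdNAMPT (log2 fold change 0.01, 95% interval -0.20 to 0.22, limma adjusted p = 0.982). The guanylate-binding proteins, larger GTPases that attack pathogen membranes, spread widely among the AdNAMPT mice. Gbp2 ran from 3.95 to 18.4 normalized CPM there and from 5.42 to 10.1 in AdGFP, and Gbp3 and Gbp7 had log2 fold changes of 0.14 and 0.05. All 7 tested members of the group had fitted values above 0 (median 0.27), beside 50.4% of all genes tested. Of the 7, 2 were higher at an unadjusted p under 0.05, beside 4.65% of all genes tested.

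**Figure D2:**
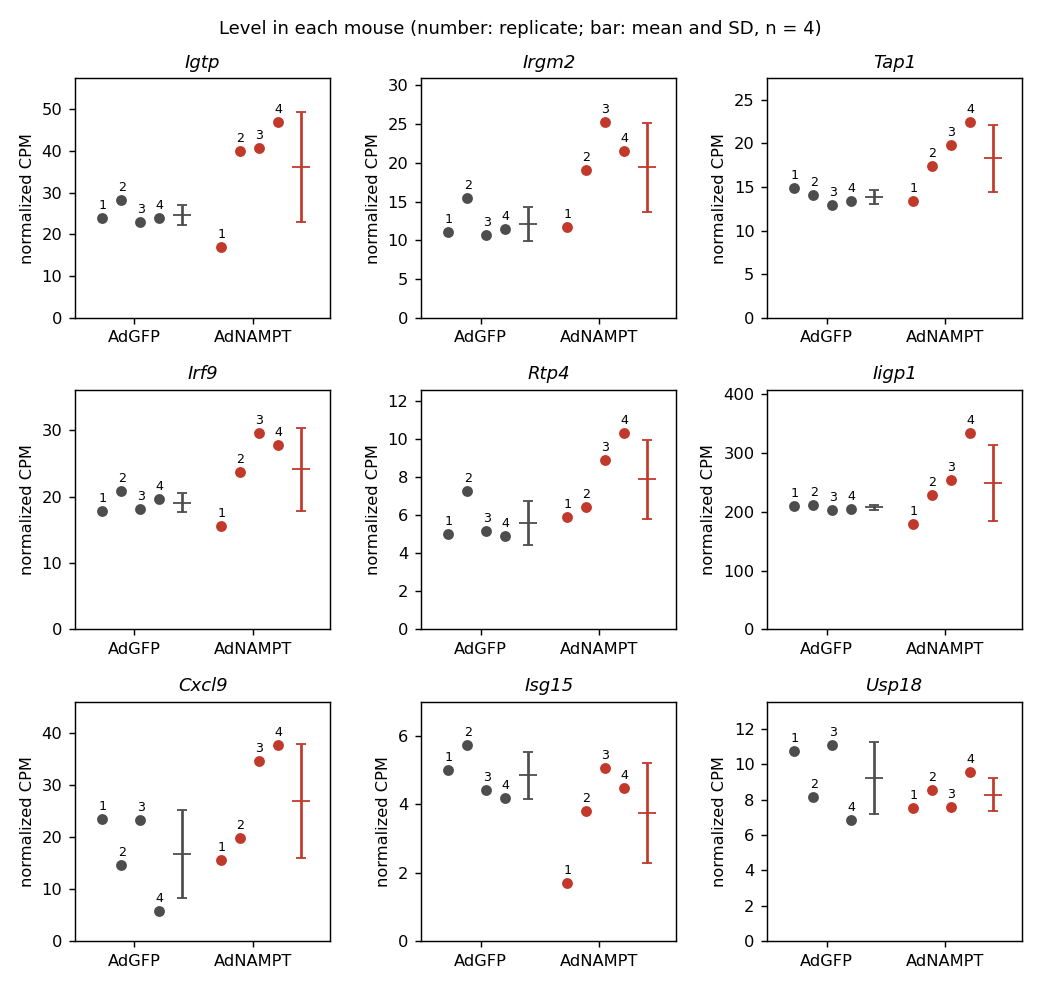
Normalized CPM of 9 members in each mouse. Gray points are AdGFP and red points AdNAMPT, the number beside a point is the replicate, and the bars are the mean and SD (n = 4). For Igtp, Irgm2, Tap1, Irf9 and Iigp1, AdNAMPT 2 to 4 lie above every AdGFP mouse and AdNAMPT 1 does not, whereas Isg15 and Usp18 show no such step.

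In the antigen-processing group, Tap1 (ENSMUSG00000037321, chr17:34187553-34197225), a subunit of the transporter that moves peptides into the endoplasmic reticulum for MHC class I, was at 14.8, 14.1, 13.0 and 13.4 normalized CPM in AdGFP 1 to 4 and at 13.4, 17.5, 19.8 and 22.5 in AdNAMPT 1 to 4. AdNAMPT 1 again lay within the AdGFP range and the others above it. The log2 fold change was 0.45 (95% interval 0.18 to 0.71), with limma p values of 0.00339 unadjusted and 0.300 adjusted. Psmb8 and Psmb9, the immunoproteasome subunits encoded beside it on chromosome 17, did not share this pattern in the fit. Psmb8 was at 32.5 to 38.9 in AdGFP and 32.1 to 39.9 in AdNAMPT (log2 fold change -0.00, 95% interval -0.21 to 0.20, limma adjusted p = 0.993). Psmb9 was at 27.4 to 33.6 and 19.3 to 37.0 (log2 fold change -0.05, 95% interval -0.34 to 0.25, limma adjusted p = 0.948). Tap1 and Psmb9 share 212 exon bases on opposite strands, and 6.80% of the Psmb8 exon length is shared with Gm20496 on the opposite strand. Whether the counting used strand was not stated.

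Among the transcription factors, Irf9 (ENSMUSG00000002325, chr14:55603571-55610030), the DNA-binding partner of STAT2, was at 17.8, 20.9, 18.1 and 19.7 normalized CPM in AdGFP 1 to 4 and at 15.6, 23.7, 29.6 and 27.9 in AdNAMPT 1 to 4. AdNAMPT 1 was the lowest of the 8 mice and AdNAMPT 2 to 4 were the highest. The log2 fold change was 0.41 (95% interval 0.11 to 0.71), and the limma p was 0.0116 unadjusted and 0.417 adjusted. Stat2, a subunit of the ISRE-binding complex, was at 21.7 to 25.5 in AdGFP and 22.5 to 28.6 in AdNAMPT (log2 fold change 0.15, 95% interval -0.04 to 0.34, limma adjusted p = 0.636). Irf1, an early factor of the interferon gamma response, was the most abundant of the 4 factors at a mean of 8.35 normalized RPKM (log2 fold change 0.19, 95% interval -0.10 to 0.48, limma adjusted p = 0.696). Irf7, which amplifies interferon alpha transcription, ran from 12.3 to 26.4 normalized CPM in AdGFP, wider than its 13.1 to 24.1 in AdNAMPT, with a log2 fold change of 0.17.

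The 9 other antiviral effectors had a median log2 fold change of 0.07, and 1 of them, Rtp4, had an unadjusted p under 0.05. Rtp4 (ENSMUSG00000033355, chr16:23609919-23614222), a receptor-trafficking protein induced by type I interferon, was at 5.02, 7.28, 5.18 and 4.89 normalized CPM in AdGFP 1 to 4 and at 5.89, 6.41, 8.89 and 10.3 in AdNAMPT 1 to 4. Only AdNAMPT 3 and 4 lay above AdGFP 2, which itself stood above the other AdGFP mice. The log2 fold change was 0.57 (95% interval 0.16 to 0.97), with limma p values of 0.0106 unadjusted and 0.411 adjusted. Bst2 (tetherin), which anchors budding virions to the cell surface, was the second most abundant member per length and was at 40.3 to 57.7 normalized CPM in AdGFP and 38.1 to 53.7 in AdNAMPT (log2 fold change 0.07, 95% interval -0.17 to 0.32, limma adjusted p = 0.876). Ifi27l2a was the lowest of the group in the fit, with a log2 fold change of -0.08 (95% interval -0.75 to 0.58, limma adjusted p = 0.959). Its levels, 1.94 to 2.82 in AdGFP and 1.50 to 4.36 in AdNAMPT, were close to the filter. The remaining 6 were Ifi44, Rsad2 (viperin), Cmpk2, Xaf1, Parp14 and Trim30a, with log2 fold changes from -0.03 for Rsad2 to 0.35 for Ifi44.

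The sensors of viral RNA and nucleic acid showed little difference in the fit. Ifih1 (MDA5), a sensor of long double-stranded RNA, was at 44.5 to 51.0 normalized CPM in AdGFP and 34.3 to 60.0 in AdNAMPT (log2 fold change -0.06, 95% interval -0.35 to 0.23, limma adjusted p = 0.928). Ddx58 (RIG-I), which detects short RNA with a 5′ triphosphate, and Dhx58 (LGP2), which modulates both sensors, had log2 fold changes of 0.11 and 0.07. Zbp1, a sensor of Z-form nucleic acid linked to necroptosis, had the widest interval of the 4, at 2.37 to 3.91 normalized CPM in AdGFP and 1.05 to 6.01 in AdNAMPT (log2 fold change 0.29, 95% interval -0.49 to 1.07, limma adjusted p = 0.844). For all 4 sensors the AdNAMPT mice spanned the whole AdGFP range and extended past both of its ends.

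Isg15, the ubiquitin-like protein attached to other proteins during the response, and Usp18, the protease that removes it and that restrains the type I receptor, were both lower in the fit. Isg15 was at 5.02, 5.75, 4.43 and 4.20 normalized CPM in AdGFP 1 to 4 and at 1.69, 3.82, 5.05 and 4.48 in AdNAMPT 1 to 4, and AdNAMPT 1 and 2 lay below every AdGFP mouse while AdNAMPT 3 and 4 lay among them. Its log2 fold change was -0.23 (95% interval -0.71 to 0.25, limma adjusted p = 0.783). Usp18 was at 6.87 to 11.1 in AdGFP and 7.50 to 9.54 in AdNAMPT, a range inside that of AdGFP (log2 fold change -0.14, 95% interval -0.51 to 0.23, limma adjusted p = 0.846).

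Of the 10 IFIT, OAS and MX effectors, 6 were tested, and their fitted values lay on both sides of 0 (median 0.12). Ifit3, which stabilizes the RNA-binding IFIT complex, was the most abundant of them per length and was at 5.80 to 9.42 normalized CPM in AdGFP and 3.71 to 11.4 in AdNAMPT (log2 fold change 0.03, 95% interval -0.58 to 0.63, limma adjusted p = 0.986). Oasl2, an OAS-like protein, had the highest value of the group, 0.54 (95% interval -0.28 to 1.37, limma adjusted p = 0.688), and Mx2, a dynamin-like GTPase that the annotation types as a polymorphic pseudogene, had the lowest, -0.14 (95% interval -0.50 to 0.23, limma adjusted p = 0.844). Ifit1, Ifit2 and Oasl1 had values of -0.08, 0.32 and 0.22. The other 4 members of the group lay below the filter. Oas1a had 11, 11, 14 and 0 reads in AdGFP 1 to 4 and 1, 8, 21 and 13 in AdNAMPT 1 to 4, and in all 8 libraries together Oas2 had 69 reads, Oas3 59 and Mx1 95. At this depth a small difference in these 4 was not detectable. Fitted without the filter, their standard errors ran from 0.43 for Oas3 to 0.94 for Oas1a on the log2 scale.

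The chemokines Cxcl9 and Cxcl10, which draw CXCR3-bearing T cells, had the highest group median, 0.54, and Cxcl9 had the widest interval of the tested members. Cxcl9 was at 23.5, 14.6, 23.3 and 5.72 normalized CPM in AdGFP 1 to 4 and at 15.5, 19.8, 34.7 and 37.8 in AdNAMPT 1 to 4. AdNAMPT 3 and 4 were the highest and AdGFP 4 the lowest, and the other mice of both groups overlapped. The log2 fold change was 0.84 (95% interval -0.09 to 1.78), with limma p values of 0.073 unadjusted and 0.565 adjusted. Cxcl10 was at 1.07 to 2.12 in AdGFP and 1.29 to 2.65 in AdNAMPT (log2 fold change 0.24, 95% interval -0.41 to 0.89, limma adjusted p = 0.843).

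Per length, the members ranged from 73.1 normalized RPKM for Iigp1 and 61.5 for Bst2 to 0.0918 for Oas3, as means over the 8 mice. Of the members, 5 were over 10 normalized RPKM, namely Iigp1, Bst2, Igtp, Psmb8 and Irgm1, and 8 were under 1. In this order 39 of 40 neighboring pairs overlapped in their range over mice, and the only gap lay between Bst2 and Igtp.

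**Figure D3:**
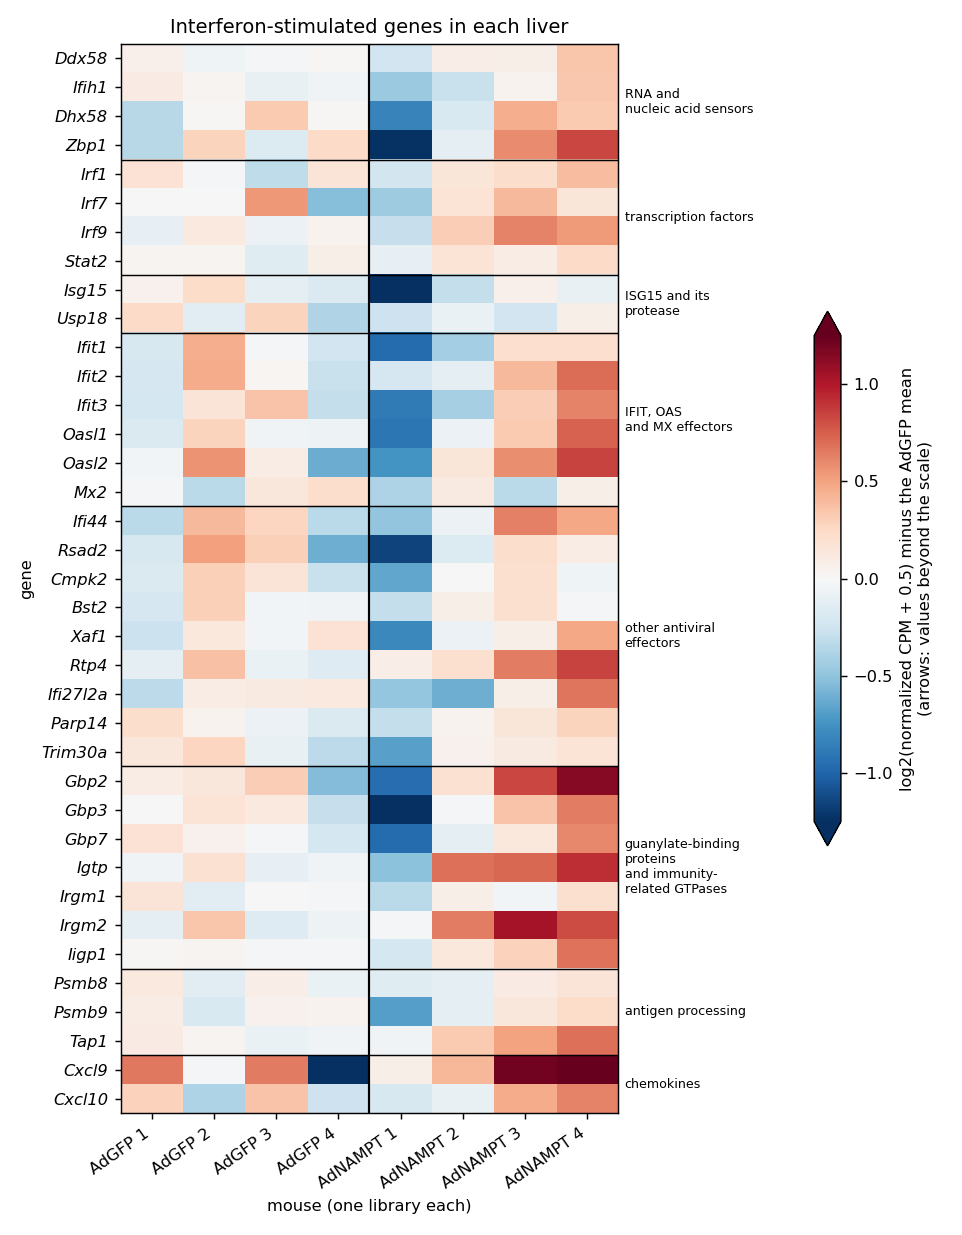
Level of each tested member in each mouse, as log2(normalized CPM + 0.5) minus the AdGFP mean of that gene, with mice in columns and genes in rows by role. Blue is below and red above the AdGFP mean, and values beyond the ends of the scale take its end colors. The AdNAMPT 1 column is blue and the AdNAMPT 4 column is red for most genes, while the AdGFP columns are paler and mixed.

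The members differed widely between the AdNAMPT mice, and most of them ranked those mice alike. AdNAMPT 1 was the lowest AdNAMPT mouse for 36 of 37 members, all but Ifi27l2a, beside 33.3% of all genes tested. AdNAMPT 4 was the highest AdNAMPT mouse for 26 of 37 (70.3%), beside 24.7%. Both held for 25 of 37 members (67.6%), beside 14.2% of all genes tested. Over all 8 mice, AdNAMPT 1 was the lowest for 26 of 37 (70.3%, beside 22.7%) and AdNAMPT 4 the highest for 24 of 37 (64.9%, beside 12.5%). The median member was 0.90 higher on the log2 scale in AdNAMPT 4 than in AdNAMPT 1, where the median over all genes tested was -0.00. These shares describe the mice and carry no p, since the members were measured in the same libraries and are not independent.

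Averaged over the 37 members, the difference in log2(normalized CPM + 0.5) from the AdGFP mean was -0.02, 0.12, 0.07 and -0.17 in AdGFP 1 to 4 and -0.53, 0.02, 0.32 and 0.47 in AdNAMPT 1 to 4. The AdGFP mice stayed near 0, and the AdNAMPT mice reached from well below to well above them. Over the 41 members in the files, summed levels were 752 to 824 normalized CPM in AdGFP (799 ± 33.1, SD, n = 4) and 619.6 to 1116 in AdNAMPT (887 ± 210, SD, n = 4). The SD of log2 levels was larger in AdNAMPT for 33 of 37 members, beside 59.9% of all genes tested. The median SD of the members was 0.23 in AdGFP and 0.42 in AdNAMPT, and over all genes tested it was 0.15 and 0.17.

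**Figure D4:**
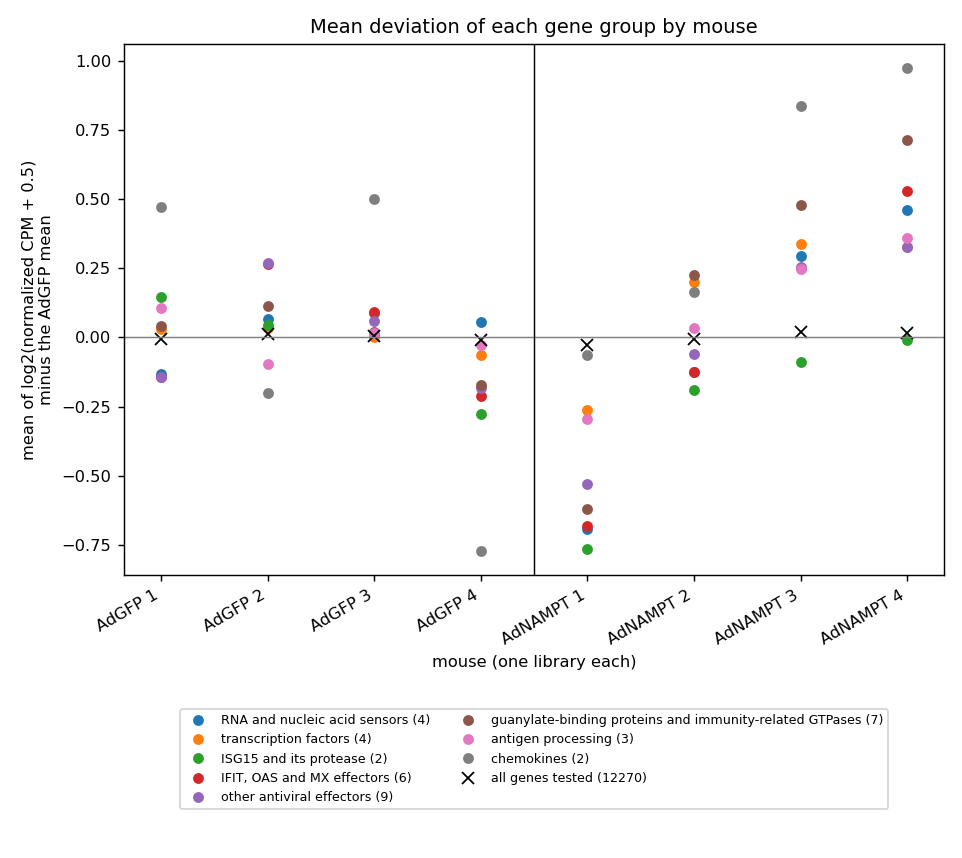
Mean over the genes of each role group of log2(normalized CPM + 0.5) minus the AdGFP mean, in each mouse, with the number of genes in parentheses and crosses for all genes tested. In AdNAMPT 1 every group lies below 0, in AdNAMPT 3 and 4 every group but ISG15 and its protease lies above 0, and the crosses stay near 0 in all 8 mice.

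In AdNAMPT 1 the group means ran from -0.77 for ISG15 and its protease to -0.06 for the chemokines, and in AdNAMPT 4 from -0.01 for ISG15 and its protease to 0.97 for the chemokines, with the GTPases at -0.62 and 0.71 in these mice. The summed level of the markers of Kupffer cells, the resident macrophages of the liver, moved in the same order within AdNAMPT. This sum was 180.4 in AdNAMPT 1, 208 in AdNAMPT 2, 274 in AdNAMPT 3 and 309 in AdNAMPT 4, against 268 to 341 normalized CPM in AdGFP. Between the groups the markers went the other way from the members. All 7 were lower in the fit, where 50.4% of all genes tested lay above 0. At an unadjusted p under 0.05, 3 of 7 (Clec4f, Vsig4 and Timd4) were lower, beside 5.04% of all genes tested. None was called, and the smallest limma adjusted p was 0.211. AdNAMPT 4 was the highest AdNAMPT mouse for 7 of 7, beside 24.7% of all genes tested. AdNAMPT 1 was the lowest for only 4 of 7, beside 33.3%. In whole tissue, fewer cells of a type and less RNA per cell cannot be told apart. Markers of T cells and NK cells, sources of interferon gamma, summed to 4.43 to 8.13 normalized CPM in AdGFP and 5.00 to 9.60 in AdNAMPT, with AdNAMPT 1 the lowest and AdNAMPT 4 the highest of the AdNAMPT mice. Only 2 of the 13 passed the filter, 1 higher and 1 lower in the fit (median log2 fold change -0.04, limma adjusted p from 0.925 to 0.961). Markers of monocytes and neutrophils summed to 5.24, 9.0, 9.28 and 9.72 normalized CPM in AdNAMPT 1 to 4, against 5.90 to 8.32 in AdGFP, so AdNAMPT 1 lay below and the other AdNAMPT mice above every AdGFP mouse. Of these 6 markers, 3 were tested, and Ccr2, S100a8 and S100a9 were each lowest in AdNAMPT 1 among the AdNAMPT mice and had log2 fold changes of 0.46, 0.39 and 0.56, none at an unadjusted p under 0.05. Summed markers were 0.229 to 1.12 and 0.322 to 1.71 for B cells and 0.860 to 1.14 and 0.535 to 1.21 for plasmacytoid dendritic cells, in AdGFP and AdNAMPT. For endothelial cells they were 218 to 251 and 209.6 to 249, and for stellate cells 343 to 386 and 328 to 364. The part of any of these cells, and of the sex-linked and sex-biased differences of AdNAMPT 1 and 4, in the members' levels was not tested.

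The comparison between the vectors depended on which AdNAMPT mice entered it. AdNAMPT 1 was the lowest AdNAMPT mouse for 36 of 37 members and AdNAMPT 4 the highest for 26. The direction in which the members shift when either is left out was therefore set by these same levels. The calls and counts of those fits are description and add no separate evidence of a difference between the vectors. Without AdNAMPT 1, 34 of 37 members were higher, beside 50.9% of all genes, the median log2 fold change was 0.24, and limma called Igtp (0.81, adjusted p = 0.00215) and Irgm2 (0.93, adjusted p = 0.0128). Then 12 members were higher at an unadjusted p under 0.05, where 5.42% of 12465 genes were, and 38 of all genes (0.305%) were called, 7 of them higher (0.0562%). The groups no longer overlapped for 7 members, Ddx58, Irf9, Stat2, Igtp, Irgm2, Iigp1 and Tap1, all higher, beside 4.26% of the 12270 genes. Without AdNAMPT 4, the median turned to -0.01, 17 members were higher and 20 lower (51.3% of all genes were higher), and Igtp, Irgm2 and Tap1 were higher and Ifih1 lower at an unadjusted p under 0.05, beside 5.56% and 5.77% of all genes. Without AdNAMPT 2, 9 members were higher at that p, beside 5.23%. With AdNAMPT 1 and 4 both left out, a fit added after the data were seen, 28 members were higher, beside 51.8% of all genes, and the median was 0.17. Igtp (0.74, limma adjusted p = 0.0140) was then called, beside 0.0324% of all genes called higher, and Irgm2 was at 0.93 (limma adjusted p = 0.0557). The AdNAMPT group then held 2 mice, and 7 members did not overlap, beside 8.11% of all genes. Irgm2, Igtp and Tap1 were above 0 in every one of these fits. So were Rtp4, Irf9, Cxcl9, Iigp1, Irf1, Stat2 and Oasl2, while Isg15 and Usp18 were below 0 in each.

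**Figure D5:**
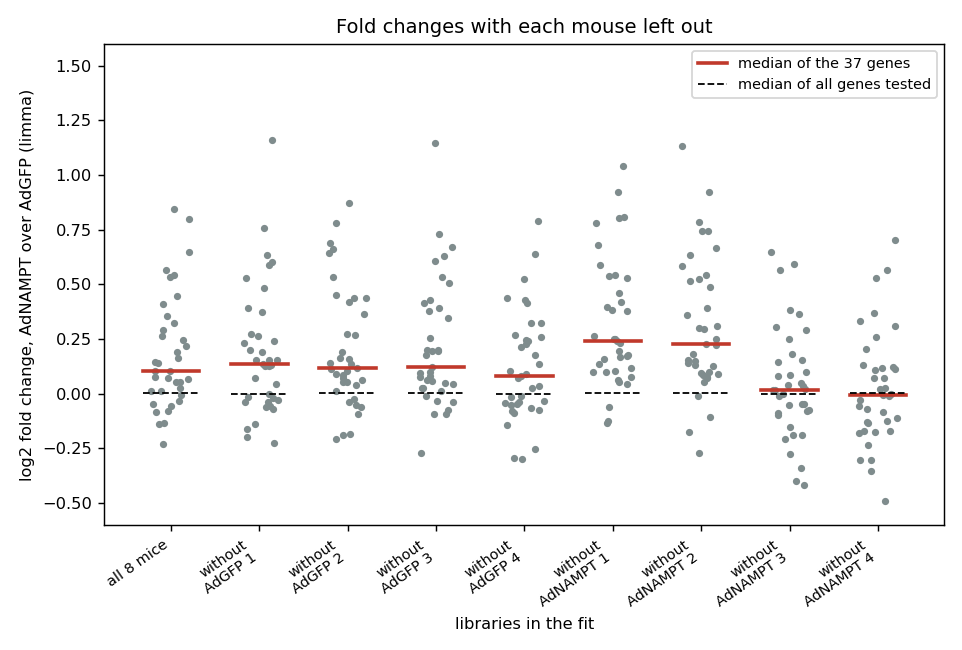
Log2 fold changes of the 37 members, AdNAMPT over AdGFP, in the limma fit on all 8 mice and in 8 fits that each leave out 1 mouse. Gray points are genes, red lines their median and dashed lines the median of all genes tested. The members' median is 0.11 with all mice, 0.24 without AdNAMPT 1 and -0.01 without AdNAMPT 4, while the dashed lines stay near 0.

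Among tested members with a window, the median log2 fold change was 0.36 (range 0.05 to 0.80) for the 4 with both ISRE and GAS letters, which were Igtp, Irgm2, Bst2 and Gbp7. It was 0.05 for the 12 with ISRE letters alone, 0.19 for the 3 with GAS letters alone and 0.29 for the 10 with neither, among them Tap1, Irf9 and Cxcl9. The ranges of the classes overlapped, and the classes were not tested.

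The interferons themselves were almost absent. Ifnb1, Ifna1, Ifna2, Ifna4, Ifna5, Ifne, Ifnl2 and Ifnl3 had 0 reads in all 8 libraries, which allows a level of up to 0.151 to 0.250 CPM per library for counting error alone. Ifng had 0, 0, 2 and 0 reads in AdGFP 1 to 4 and 0, 3, 2 and 2 in AdNAMPT 1 to 4, and Ifnk had 30 reads in all. Both chains of the type I receptor were present and similar, with Ifnar1 at 41.2 to 44.8 normalized CPM in AdGFP and 38.1 to 42.6 in AdNAMPT (log2 fold change -0.11, limma adjusted p = 0.640), and Ifnar2 at 45.0 to 47.7 and 44.6 to 51.2 (0.04, limma adjusted p = 0.891). The interferon gamma receptor chains Ifngr1 and Ifngr2 had log2 fold changes of -0.08 and 0.07. Irf3, which starts interferon beta transcription, had a log2 fold change of 0.05.

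Of 40 further pathway genes in the files (ligands, receptors, kinases, sensors, adaptors and inhibitors), 26 were tested and 0 were called, with adjusted p from 0.392 to 0.988 by limma. Of these, 16 had a higher and 10 a lower fitted value, with a median of 0.04. At an unadjusted p under 0.05, 1 was higher and 4 were lower, beside 4.65% and 5.04% of all genes tested. The higher one was Sting1, the adaptor of cytosolic DNA sensing, at 1.30 to 1.92 normalized CPM in AdGFP and 1.83 to 2.46 in AdNAMPT (log2 fold change 0.51, limma adjusted p = 0.470). The lower ones were Stat3 (-0.21), which serves interleukin 6 as well, the endosomal RNA receptor Tlr7 (-0.76), the kinase Ikbke (-0.26) and Irf5 (-0.67), which shares 14.2% of its exon length with Tnpo3 on the opposite strand. Stat3 was at 101 to 115 in AdGFP and 90.8 to 95.4 in AdNAMPT, without overlap (limma adjusted p = 0.392).

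Of 42 further interferon-stimulated genes in the files, 36 were tested and 0 were called, with adjusted p from 0.395 to 0.998 by limma. There, 24 were higher and 12 lower in the fit, with a median of 0.08, close to that of the members. At an unadjusted p under 0.05, 4 were higher and 1 lower, beside 4.65% and 5.04% of all genes tested. The higher ones were the RNA-editing enzyme Adar (0.26), the MHC class I transactivator Nlrc5 (0.27), the peptide-loading chaperone Tapbp (0.24) and Gbp4 (0.56). Pml, the scaffold of nuclear bodies, was lower (-0.32), at 11.2 to 12.6 normalized CPM in AdGFP and 7.01 to 11.1 in AdNAMPT. Tapbp was at 62.5 to 69.8 in AdGFP and 71.2 to 84.8 in AdNAMPT, and it shares 20.2% of its exon length with Gm19412 on the opposite strand. The groups did not overlap for either Pml or Tapbp. AdNAMPT 1 was the lowest AdNAMPT mouse for 29 of these 36 genes and AdNAMPT 4 the highest for 27. Without AdNAMPT 1 the count of higher genes rose to 30 and the median to 0.15, where 50.9% of all genes were higher. Without AdNAMPT 4, 17 were higher and 19 lower with a median of -0.035, where 51.3% of all genes were higher.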

How the data were processed

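Liver RNA from 8 db/db mice (4 AdGFP, 4 AdNAMPT, grouped by sample title) was sequenced as single reads of 50 bases. The authors aligned reads with STAR to GRCm38 and counted unique, unambiguous reads per Ensembl gene with featureCounts. The submitters' processing notes give versions 2.4.0b and 1.4.5. Strand use was not stated. The labels name ribosomal RNA depletion and the study's methods poly-A selection. Counts were deposited as whole numbers of reads for each gene. The deposited CPM are counts scaled to each library's total, and the deposited RPKM are those CPM divided by exonic length. Normalized CPM and normalized RPKM were computed here from the counts and TMM factors.

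Symbols came from GENCODE M21 and matched 40340 of 41388 features. Following the study's methods, 355 ribosomal RNA features and genes not over 1 CPM in at least 3 libraries were left out, and TMM-scaled counts were fitted with limma's voomWithQualityWeights. A gene was called where its p, adjusted by Benjamini-Hochberg over all 12270 genes tested, did not exceed 0.05. The limma p-values set the difference between the groups against the spread between these mice, with each library given its sample weight. On simulated counts with 12188 genes tested, the model recovered 190 of 198 genes changed 3-fold (96.0%), with 7 false calls. The largest fitted fold among the tested members was 1.80, for Cxcl9, and no simulated library was made to stand apart from its group. This recovery therefore does not show what could be detected among the members.

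The members and all lists were chosen with earlier results of these data known. Every member is named. Fuller statistics are given for the members with the highest and lowest fold change and the highest level of each role group, and for members at an unadjusted p under 0.05 or without overlap. Other pathway and interferon-stimulated genes are named at that p, besides 5 chosen receptors and factors (1 other chosen gene is not reported here), and the sex-linked and sex-biased genes were added to describe libraries that stand apart. RefSeq promoter windows were matched by symbol. Alternatives were edgeR's quasi-likelihood test, the DESeq2 Wald test, no sample weights, DESeq2 size factors, library size only, no filter, a mean count of at least 10, a replicate block, each library left out, and 2 libraries left out together. Fits used limma 3.58.1 and, as alternatives, edgeR 4.0.16 and DESeq2 1.42.0 under R 4.3.3. Summaries were made with pandas 2.3.3 and numpy 2.4.6 in Python 3.11.15, and plots with matplotlib 3.10.9.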

Additional observations from a re-analysis of the deposited data

Results flagged for a closer look

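Within a group of 4 mice, 4 of 82 checks found a member with 1 library far from the other 3, by Dixon's criterion on the gap to the nearest library. Chance gives about 1 in 20 such checks. Irgm2 in AdGFP 2, at 15.4 normalized CPM against 10.7 to 11.4 in the other AdGFP mice, and Rtp4 in AdGFP 2, at 7.28 against 4.89 to 5.18, were both high. Ifi27l2a in AdGFP 1 was low, at 1.94 against 2.76 to 2.82. Oas1a in AdGFP 4 had a level of 0.0 against 0.789 to 0.874. No AdNAMPT library met the criterion for any member.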

How the results depend on the processing

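The counts of called members (0), of members at an unadjusted p and of members without overlap stayed within 1.5 times in the fits on all 8 mice, except that 3 members in place of 5 were higher at an unadjusted p without sample weights, and that the DESeq2 Wald test called 75 of all genes in place of 34. Without sample weights those 3 members were Irgm2, Rtp4 and Tap1, and Igtp and Irf9 no longer passed. The median of 0.11 fell to 0.055 in that fit, where 20 members were higher and 17 lower. By both edgeR and DESeq2 the median was 0.058. Over the fits without 1 mouse, 0 to 2 members were called, beside 0.224% to 0.305% of all genes. At an unadjusted p, 3 to 12 members were higher and 0 to 1 lower, beside 3.67% to 6.0% and 4.03% to 6.13% of all genes. In these fits 0 to 7 members did not overlap. There were 7 without AdNAMPT 1, beside 4.26% of all genes higher, and 2 without AdGFP 2, where no share was computed. The median ran from -0.0068 to 0.24. With AdNAMPT 1 and 4 both left out, a choice made after seeing the data, 1 member was called and 7 did not overlap. Members near 0 changed sign. Over the fits without 1 mouse, log2 fold changes ran from -0.30 to 0.31 for Ifit3, -0.084 to 0.077 for Psmb8, -0.031 to 0.070 for Irgm1, -0.23 to 0.084 for Ifih1, -0.49 to 0.25 for Ifi27l2a, -0.17 to 0.076 for Psmb9, -0.068 to 0.59 for Zbp1, -0.27 to 0.00063 for Mx2 and -0.012 to 0.49 for Cxcl10, and from 0.53 to 0.81 for Igtp and 0.65 to 0.93 for Irgm2. The DESeq2 Wald test gave Bst2 -0.0080, Ifi27l2a 0.0088, Irgm1 -0.012 and Psmb8 0.0061, and edgeR's quasi-likelihood test gave Bst2 -0.010, Ifi27l2a 0.016, Irgm1 -0.014 and Psmb8 0.0039. Without sample weights Ifit3 was -0.046, Bst2 -0.0054, Irgm1 -0.023 and Psmb8 0.0041. Without the filter Ifit3 was -0.046 and Irgm1 -0.0055, and with both mice left out Ifit3 was -0.0029. Scaled by library size only, which moved the median gene by 0.084, Ifih1 was 0.021, Psmb8 0.075 and Psmb9 0.034, and 32 members were higher. Same-numbered mice did not pair (correlations of their deviations from -0.05 to 0.23). With the replicate number as a block, 0 members were called, 5 were higher at an unadjusted p, the median was 0.11, and Ifi27l2a was 0.035 and Psmb8 0.033. The causes of these changes were not tested. With 4 mice a group, standard errors of up to 0.43 limit what could be detected among the tested members.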
